A study of Oedaleus asiaticus with 9 samples.

Results

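The microRNA miR-14 appeared as 2 entries, miR-14-y and miR-14-z, among the 365 miRNA entries counted in small RNA libraries from females of the grasshopper *Oedaleus asiaticus*. Both were taken by name and carry the same sequence except for 2 further bases at the 3′ end of miR-14-z. Libraries came from females at an age of 3 days in each of 3 stages, the 3rd instar nymph, the 5th instar nymph and the emerged adult, all fed normally and without treatment. Each stage is represented by 3 libraries, which makes 9. The labels name no body part and do not say whether animals were pooled or whether replicates were separate animals. The p-values therefore cover the spread among these libraries only, and that spread may be technical. Total counts over all entries ran from 1462586 to 5309504 per library.

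MicroRNAs are short RNAs that guide a silencing complex to messenger RNAs, chiefly by pairing of a seed near their 5′ end. In flies, miR-14 lowers the level of the ecdysone receptor, which otherwise strengthens its own expression, and it also holds back cell death and acts in insulin-producing cells on fat storage. Ecdysone is the steroid hormone that triggers each moult of an insect. Of the stages sampled, the nymphal ones lie between moults and the adult after the last of them.

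The deposited sequences are shown first, 5′ to 3′ and with T for U as in the table, because the values below turn on how the forms differ. The seed, bases 2 to 8, is in capitals.
miR-14-y: tCAGTCTTtttctctctcctat
miR-14-z: tCAGTCTTtttctctctcctattt
The forms start at the same base and share the whole seed. With the added bases in capitals instead, the longer form reads as follows.
miR-14-z: tcagtctttttctctctcctatTT
miR-14-y is 22 nt long and miR-14-z 24 nt, and both added bases are T. Whether the precursor encodes them was not tested, as no genome was used. Pyrimidines (C and T) made up 86.4% of miR-14-y and 87.5% of miR-14-z, the highest shares among the 291 entries with a known family name, whose median was 50%. An unbroken run of 16 pyrimidines spans bases 5 to 20 of both forms, and no other known entry holds a run as long. Of the remaining 363 entries, 0 share the seed, and 0 contain or lie within either form.

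Levels are given as normalised CPM, each count relative to the library total scaled by edgeR's TMM factor. In the 3rd instar miR-14-y stood at 10269.8, 8478 and 7816 CPM, in the 5th instar at 5892, 4834 and 6261 CPM, and among adults at 5881, 5573 and 5792 CPM. The 3rd instar libraries all lay above the other 6, while the adult libraries lay within the range of the 5th instar. Stage means were 8855 ± 1269, 5662 ± 741 and 5749 ± 159 CPM (SD, n = 3 each), a spread of 14.3%, 13.1% and 2.76% of the mean. By rank among known entries in single libraries, it was between the 6th and the 8th most abundant in the 3rd instar, the 10th to the 12th in the 5th instar and the 10th in each adult library. In order of level the 3rd instar came first, and the adult and 5th instar means differed by less than the spread of the 5th instar.

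miR-14-y fell to 0.639 of its 3rd instar level in the 5th instar (log2 fold change -0.65 ± 0.15 SE, adjusted p = 0.0484, quasi-likelihood test of edgeR, Benjamini-Hochberg adjusted over 179 tested entries). At an adjusted p under 0.05 it was 1 of 4 entries that passed in this comparison, 2.23% of those tested. The stages did not overlap, as was the case for 52 entries (29.1%). The median log2 fold change of all tested entries was 0.0036. The change stayed short of the absolute log2 fold change of 1 that the study set as a further limit, which 3 entries (1.68%) passed. The call was lost without any single library other than adult 1 (adjusted p 0.0527 to 0.298, with log2 fold changes of -0.70 to -0.48), and the value without 3rd instar 1, which has the highest level, was -0.48.

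Adults also had less miR-14-y than the 3rd instar, at 0.649 of its level (log2 fold change -0.62 ± 0.15, adjusted p = 0.0262 by edgeR). It was 1 of 14 entries that passed (7.82% of those tested), 7 of them lower and 7 higher in adults, and 7 (3.91%) met the fold limit, which miR-14-y did not. Stages again did not overlap, as for 56 entries (31.3%), and the median of all tested entries was 0.050. This comparison and the one before it share the 3rd instar libraries, so they are not 2 independent falls. The call was lost without 3rd instar 1 (-0.47, adjusted p = 0.171), 3rd instar 3 (-0.68, 0.0768), adult 2 (-0.58, 0.0788) or adult 3 (-0.60, 0.0814).

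Between the adult and the 5th instar, the step that crosses the last moult, miR-14-y did not pass (log2 fold change 0.022 ± 0.15, adjusted p = 0.969 by edgeR), where 3 entries (1.68%) did and 2 of these (1.12%) met the fold limit. The sign of this small difference changed between scalings, with 0.022 under TMM factors and -0.021 under RLE factors. Over all 3 stages in 1 test, miR-14-y was 1 of 8 entries that passed (adjusted p = 0.0312 by edgeR, 4.47% of those tested).

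**Figure D1:**
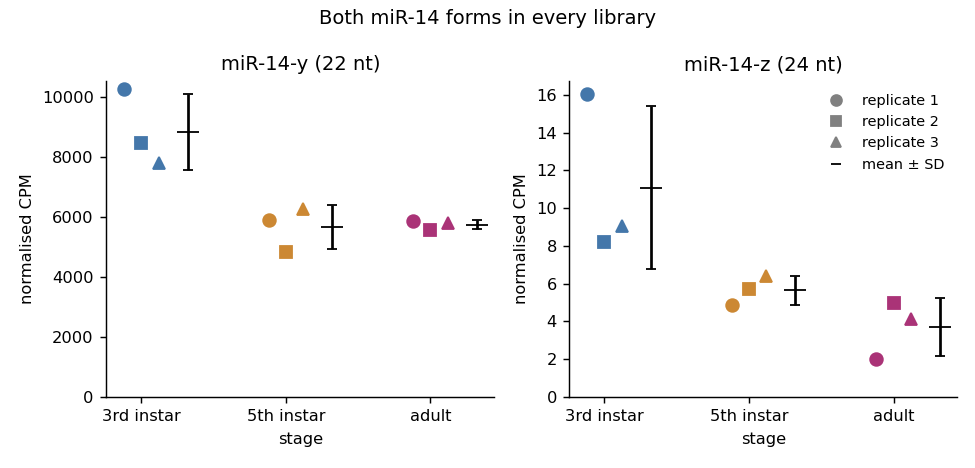
Normalised CPM (vertical axes, starting at 0) of miR-14-y (left) and miR-14-z (right) by stage; each symbol is 1 library and the bars give mean ± SD. With these TMM factors the 3rd instar libraries lie above all others for both forms and 5th instar and adult libraries overlap; on library totals alone the 3rd and 5th instar overlap for both forms.

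These values depend on how the libraries are scaled. The most abundant entry, a predicted one, averaged 680873 normalised CPM and so weighs heavily on library totals. Its log2 fold change was -0.42 in the 5th against the 3rd instar and -0.27 in the adult against the 3rd (adjusted p = 0.269 and 0.335 by edgeR). Scalings that leave it out are given below, and its part in the values was not tested otherwise. As an unscaled share of the listed counts, miR-14-y made up 1.01%, 0.724% and 0.668% in the 3rd instar, 0.605%, 0.530% and 0.730% in the 5th instar and 0.608%, 0.491% and 0.674% in adults. On that scale the stages overlapped, since 3rd instar 3 lay below 5th instar 3 and below adult 3. With library totals alone the log2 fold change was -0.37 in the 5th against the 3rd instar (adjusted p = 0.269) and -0.44 in the adult against the 3rd instar (adjusted p = 0.162). With totals that leave out the 5 most abundant entries, also without factors, the values were -0.65 and -0.66 (adjusted p = 0.0250 and 0.0121 by edgeR). Without the most abundant entry and with TMM factors they were -0.61 and -0.60 (adjusted p = 0.0968 and 0.0314 by edgeR). Over all alternatives the adjusted p ran from 0.000887 to 0.298 in the first comparison and from 0.000250 to 0.171 in the second. The median of all entries moved with library totals alone to 0.30 and 0.23. Relative to that median, miR-14-y was at -0.66 and -0.67, against -0.65 and -0.67 with TMM factors. A change of scaling moves all entries nearly alike, so these relative values had to be close and do not test the fall. In bulk samples, fewer cells that make a miRNA and less of it per cell cannot be told apart.

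The longer form, miR-14-z, was rare, with 48, 22 and 41 counts in the 3rd instar, 10, 12 and 17 in the 5th instar and 3, 16 and 19 among adults. Those counts come to 16.04, 8.21 and 9.04 CPM in the 3rd instar, 4.85, 5.70 and 6.39 CPM in the 5th instar and 1.98, 4.97 and 4.13 CPM in adults. On this scale all 3rd instar libraries lay above all others (as did, in either direction, 29.1% of entries in the 5th against the 3rd instar and 31.3% in the adult against the 3rd), while 5th instar and adult libraries overlapped, adult 2 lying above 5th instar 1. On library totals alone the values were 15.8, 7.01 and 7.72 CPM in the 3rd instar, 4.97, 6.25 and 7.45 CPM in the 5th instar and 2.05, 4.38 and 4.80 CPM in adults. There 3rd instar 2 lay below 5th instar 3, so that those stages overlapped, and the adult libraries lay below all others. The share of all entries separated in this way on library totals was not computed. Means were 11.1 ± 4.30, 5.64 ± 0.773 and 3.69 ± 1.54 CPM (SD, n = 3 each). In rank among known entries it was between the 99th and the 150th place.

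No comparison of 2 stages passed for miR-14-z, nor did the test over all stages (adjusted p = 0.121 by edgeR). The log2 fold change was -0.96 ± 0.44 in the 5th against the 3rd instar (adjusted p = 0.269), -0.55 ± 0.47 in the adult against the 5th instar (adjusted p = 0.635) and -1.52 ± 0.45 in the adult against the 3rd instar (adjusted p = 0.0659, unadjusted p = 0.00584, edgeR). Without 3rd instar 1 the first of these was -0.56, and without adult 1 the second was -0.34. The last of these was the 15th smallest p among 179 entries, of which 14 passed, and 2.23% of entries had a lower log2 fold change. It passed with DESeq2 (adjusted p = 0.0395), where 31 of 179 entries passed, and with known entries only (0.0380), where 17 of 151 did. Its adjusted p ran from 0.0380 to 0.199 over all alternatives.

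**Figure D2:**
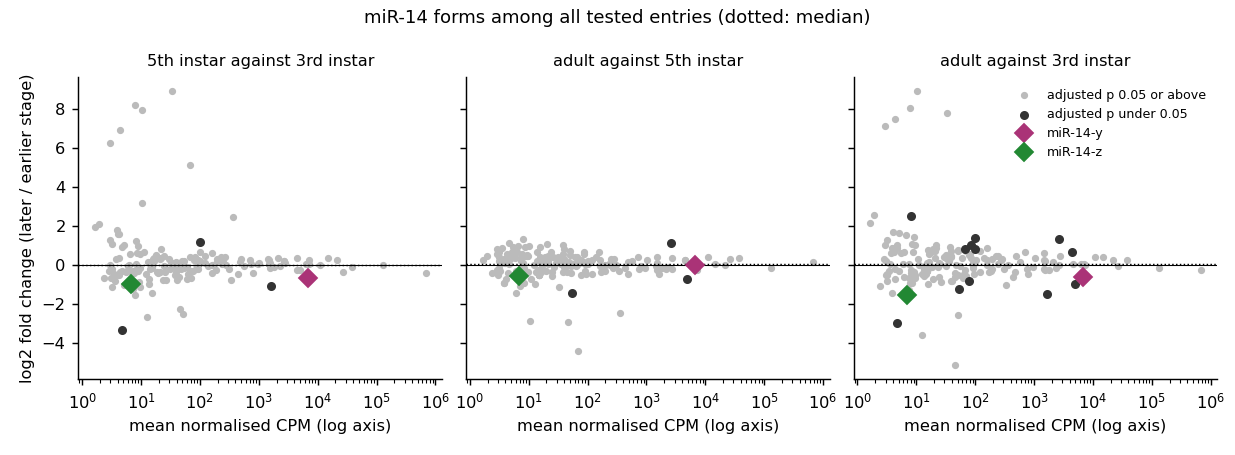
Log2 fold change (later over earlier stage, vertical axis) against mean normalised CPM (log axis) of the 179 tested entries in each comparison; dark points passed an adjusted p under 0.05, diamonds are the miR-14 forms and the dotted line is the median. miR-14-y lies at -0.65, 0.022 and -0.62 and miR-14-z at -0.96, -0.55 and -1.52 in the panels from left to right.

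The ratio of the longer to the shorter form needs no library scaling, as both are counted in 1 library. For every 1000 counts of miR-14-y there were 1.56, 0.968 and 1.16 counts of miR-14-z in the 3rd instar, 0.822, 1.18 and 1.02 in the 5th instar and 0.338, 0.892 and 0.712 among adults. The adult libraries lay below all 3rd instar libraries, and those of the 5th instar overlapped both. How many other nested pairs separate these stages was not computed. Exact 95% intervals (Clopper-Pearson, counting error only) were wide, reaching from 0.0696 to 0.987 in adult 1, which rests on 3 counts, and from 1.15 to 2.07 in 3rd instar 1. The interval of 3rd instar 1 lay above those of adult 1 and adult 3 (0.429 to 1.11), and no other pair of libraries was apart. Summed over the libraries of a stage, the ratio was 1.25 (95% interval 1.03 to 1.503), 1.000 (0.711 to 1.37) and 0.710 (0.503 to 0.975) per 1000 from the 3rd instar to the adult. These intervals treat the summed counts as 1 library and leave out the spread between libraries, so they do not compare the stages. Over all 9 libraries miR-14-z was 0.0960% ± 0.0339 (SD) of the counts of both forms.

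As a log2 ratio the stages averaged -9.70 ± 0.35, -9.97 ± 0.26 and -10.71 ± 0.73 (SD, n = 3 each). An exact permutation test over all 1680 assignments of the libraries to stages gave p = 0.0571, where 0.00357 is the smallest value it can give. Between pairs of stages the log2 ratio differed by -0.27 in the 5th against the 3rd instar (exact two-sided permutation p = 0.5), by -0.73 in the adult against the 5th instar (exact p = 0.2) and by -1.01 in the adult against the 3rd instar (exact p = 0.1, the smallest that 3 against 3 allows). Adjusted over the 3 pairs, these became 0.5, 0.3 and 0.3. The difference of the 5th from the 3rd instar was -0.086 without 3rd instar 1, -0.14 without 5th instar 1 and -0.43 without 3rd instar 2, and that of the adult from the 5th instar was -0.32 without adult 1. A change of the ratio between stages was therefore not shown. Without adult 1 the adult mean lay 0.60 below the 3rd instar on the log2 scale (p over stages 0.196), and without adult 2 it lay 1.30 below and p over the stages was 0.0179, each by the exact permutation test.

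**Figure D3:**
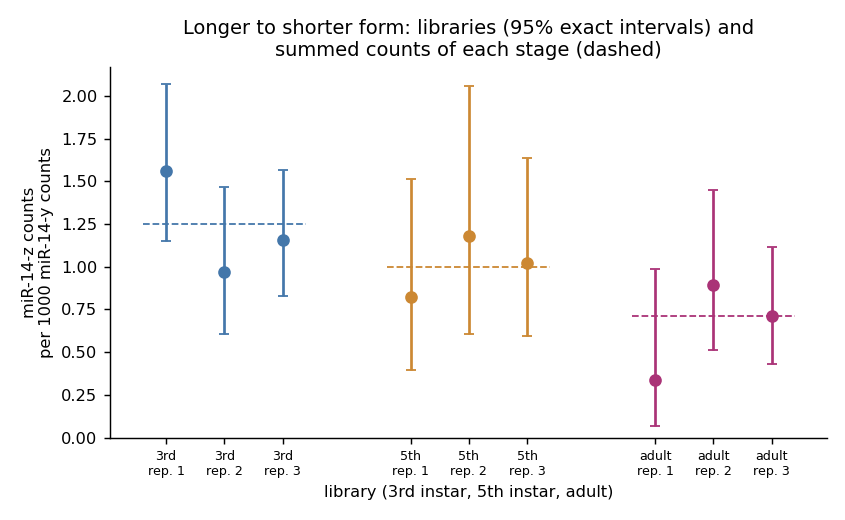
Counts of miR-14-z per 1000 counts of miR-14-y (vertical axis, starting at 0) in each library, with exact 95% intervals for counting error; dashed lines give the ratio of summed counts per stage, 1.25, 1.000 and 0.710. The adult points lie below the 3rd instar points, but most intervals overlap.

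Many entries in the table contain the sequence of a shorter one, and the ratio of the miR-14 forms is set beside theirs. Both entries were tested in 24 such pairs, all of which start at the same base, and some pairs share an entry. By summed counts, miR-14 had the second lowest ratio, 1.04 per 1000, with only miR-276-z to miR-276-y lower at 0.241 per 1000. The median pair had 57.2 per 1000. Some of the 24 join entries of different family names, such as bantam-y with miR-81-z (260669 per 1000). Most of those lie above this median, and they need not be 2 forms of 1 miRNA. Of the 24, 10 have 2 added bases, miR-14 and miR-276 among them, with a median of 7.93 per 1000. Of these 10, the longer entry was the more abundant in 1 only (miR-100-x, which contains miR-99-x), and the next highest ratio was 40.3 per 1000 for miR-317-z to miR-317-y. It was 4.28 per 1000 for miR-2765-z to miR-2765-x and 9.57 for miR-71-z to miR-71-x. In the ecdysone-induced let-7 and miR-125, whose longer entries have 1 added base, it was 93.8 and 170.6 per 1000. The ratio of summed counts was lower for adults than for the 3rd instar in 17 of the 24 pairs, miR-14 included, and declined at each step in 9, so that neither was particular to miR-14.

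**Figure D4:**
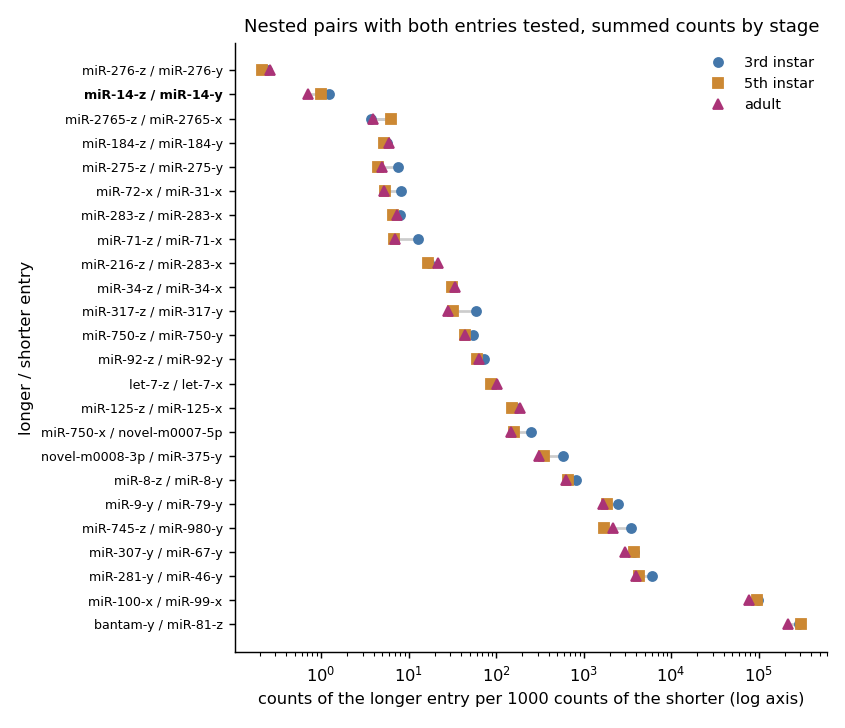
Counts of the longer entry per 1000 counts of the shorter (log axis) for the 24 nested pairs with both entries tested, from counts summed over the 3 libraries of each stage (symbols). The miR-14 pair (bold) has the second lowest ratio, at 1.25, 1.000 and 0.710 per 1000 from the 3rd instar to the adult.

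Entries of other families were ranked by how closely they followed each form across the 9 libraries, by the root mean square difference in log2 CPM after centring each entry on its own mean. For miR-14-y, the closest of 126 entries with at least 10 CPM were miR-316-y (0.16), miR-279-z (0.17), miR-71-x (0.21), miR-252-x (0.25) and miR-275-x (0.25), against a median of 0.47. miR-279-z, of a family that shapes sensory neurons in flies, was nearly as abundant as miR-14-y, at 8599 ± 785, 6354 ± 819 and 5293 ± 432 CPM over the stages (SD, n = 3 each). It fell in adults against the 3rd instar (log2 fold change -0.70 ± 0.15, adjusted p = 0.0162 by edgeR), the only one of the 5 to pass in any comparison. Another entry of its family, miR-279-y, did not pass there (-0.25, adjusted p = 0.175 by edgeR). miR-316-y stood at 58.2 ± 1.202, 38.1 ± 4.70 and 38.0 ± 2.74 CPM, with a log2 fold change of -0.61 ± 0.19 in the 5th against the 3rd instar (adjusted p = 0.166) and -0.61 ± 0.19 in the adult against the 3rd instar (adjusted p = 0.0714).

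miR-14-z followed miR-14-y at a distance of 0.49, and 76 of the 126 entries lay closer to miR-14-y than that. Only 5 lay closer to miR-14-z than miR-14-y did. Closest to miR-14-z were miR-137-y (0.38), miR-2765-x (0.41), miR-9-z (0.45), miR-251-z (0.47) and miR-981-y (0.49), against a median of 0.79. The first, known as a brain miRNA, was at 24.5 ± 3.31, 18.4 ± 1.97 and 14.9 ± 6.42 CPM. miR-2765-x and miR-9-z, of a family that shapes sense organs in flies, both fell in adults against the 3rd instar (log2 fold changes -1.50 ± 0.16 and -0.95 ± 0.13, adjusted p = 0.000164 and 0.000626 by edgeR). Neither miR-9-x (-0.30, adjusted p = 0.225) nor miR-9-y (0.0052, adjusted p = 0.987) passed there by edgeR. Entries alike to either form were chosen for following a form highest in the 3rd instar, so their falls are not independent of that choice.

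**Figure D5:**
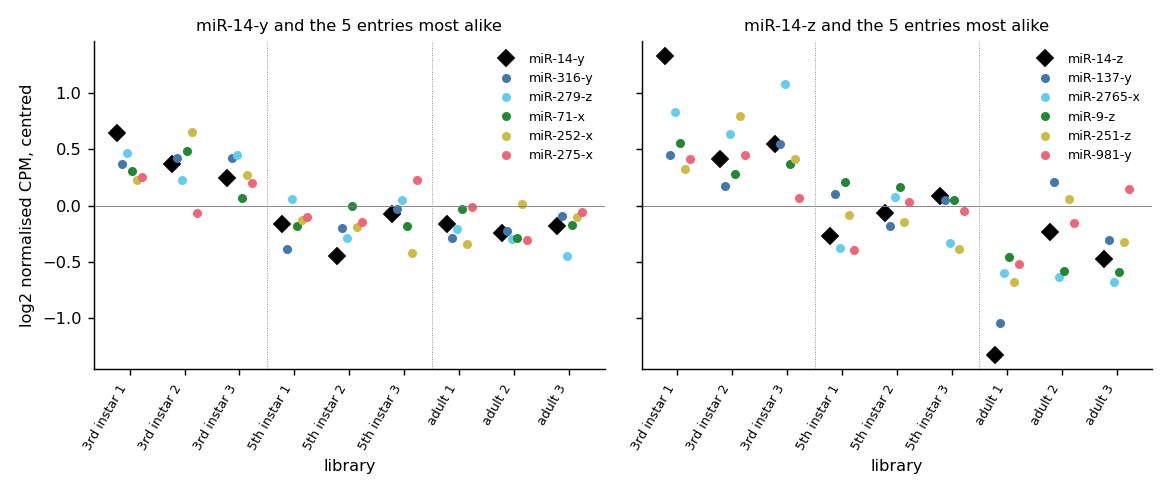
Log2 normalised CPM centred on each entry's mean (vertical axis) in every library for miR-14-y (left, diamonds) and miR-14-z (right, diamonds) with the 5 entries most alike (circles). miR-14-y and its 5 lie mostly above 0 in the 3rd instar, whereas miR-14-z is spread more widely, with 3rd instar 1 highest and adult 1 lowest.

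Of other miRNAs tied to ecdysone signalling and moulting in insects, 10 families with 22 tested entries were read, 20 of them outside miR-14. By edgeR 0 of these 20 passed in each comparison, beside 2.23% of all tested entries in the 5th against the 3rd instar, 1.68% in the adult against the 5th and 7.82% in the adult against the 3rd, so that a count of 0 is near the background. An unadjusted p under 0.05 was reached by 4 of the 20 in the 5th against the 3rd instar, 1 in the adult against the 5th and 7 in the adult against the 3rd, where 17.3%, 10.1% and 35.8% of all tested entries did. DESeq2 passed 0, 0 and 2 in the same order of comparisons, these 2 being miR-71-x and miR-8-x, beside 7.26%, 2.23% and 17.3% of all tested entries. The 20 were split, with 10 higher and 10 lower in the 5th instar against the 3rd, 11 and 9 in the adult against the 5th, and 13 and 7 in the adult against the 3rd. Their median log2 fold changes were 0.031, 0.0066 and 0.21, beside 0.0036, 0.079 and 0.050 for all tested entries. The entry of smallest p over the stages was miR-71-x, which acts with miR-263 on chitin metabolism at the locust moult. It stood at 966 ± 139, 725 ± 52.7 and 704 ± 61.7 CPM, with log2 fold changes of -0.41 ± 0.15 in the 5th instar (adjusted p = 0.195) and -0.46 ± 0.15 in the adult (adjusted p = 0.0756), both against the 3rd instar by edgeR. miR-71-z, which contains miR-71-x, was at 11.99 ± 0.346, 5.22 ± 2.72 and 4.93 ± 1.34 CPM (adjusted p = 0.149 over the stages). miR-34-x, of a family that ecdysone represses in flies, had 159 ± 35.9, 122 ± 10.8 and 194 ± 18.6 CPM (adjusted p = 0.124 over the stages).

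Among families that act on growth, insulin signalling and fat metabolism, 21 entries outside miR-14 were tested. By edgeR, 0 passed in the 5th against the 3rd instar (2 at an unadjusted p under 0.05, 0 by DESeq2), 1 higher and 1 lower in the adult against the 5th, and 2 higher and 1 lower in the adult against the 3rd, beside 4, 3 and 14 of all 179 tested entries (31 of 179 at an unadjusted p under 0.05 in the first). miR-277-y, which controls breakdown of branched-chain amino acids in flies, was higher in adults than in the 3rd instar (log2 fold change 1.32 ± 0.20, adjusted p = 0.00123), where miR-14-y was lower. The 2 entries changed at different steps. miR-277-y rose after the 5th instar (1.12 ± 0.20, adjusted p = 0.0151), where miR-14-y was at 0.022. In the 5th against the 3rd instar, where miR-14-y fell, miR-277-y was at 0.20 ± 0.20 (adjusted p = 0.636 by edgeR). miR-305-z, a rare form of a family that balances gut stem cells in flies, was the other entry to rise (2.54 ± 0.65, adjusted p = 0.0282), with 15.4 ± 12.4 CPM in adults against 2.60 ± 1.09 CPM in the 3rd instar. The far more abundant miR-305-x, at a mean of 7250 CPM, did not pass there (0.0091, adjusted p = 0.977 by edgeR). Nor did miR-305-y (1.06, adjusted p = 0.283 by edgeR). miR-9-z fell in the adult against the 5th and against the 3rd instar, where miR-9-x and miR-9-y did not pass. The medians of the 21 were 0.16, 0.0025 and 0.24 in the same order of comparisons.

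Cell death, which miR-14 was first known to hold back in flies, gave 8 tested entries outside miR-14, and 0 of them passed in any comparison by edgeR or DESeq2, with 0, 0 and 1 at an unadjusted p under 0.05, beside 31, 18 and 64 of all 179 tested entries. At 4, 3 and 14 of 179 passing by edgeR, 0 of 8 is near the background. Their median log2 fold changes were 0.064, -0.16 and -0.021. Smallest in p over the stages were miR-11-y, which restrains cell death genes in flies, at 58.2 ± 8.72, 54.3 ± 1.80 and 41.6 ± 10.4 CPM (adjusted p = 0.266), and miR-2-y, of a family that targets reaper, at 1535 ± 123, 1593 ± 73.2 and 1345 ± 66.5 CPM (adjusted p = 0.284). miR-278-y, an energy balance miRNA in flies, stood at 232 ± 10.8, 306 ± 56.2 and 274 ± 49.1 CPM (adjusted p = 0.287).

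Markers of neurons and muscle were read beside miR-14-y, as were families known from vertebrates, which are not read as markers of a tissue. The 4 entries of 3 neuronal families (miR-124, miR-137 and miR-7) summed to 103.6 to 107.4 CPM in the 3rd instar, 76.1 to 85.5 in the 5th instar and 71.5 to 88.0 in adults, highest in the 3rd instar without overlap. With TMM factors, 29.1% of single entries did not overlap between the 5th and the 3rd instar, and 31.3% between the adult and the 3rd. No such share was computed for sums of entries. On library totals alone, the same sums overlapped, at 90.03 to 101.9, 78.1 to 99.5 and 63.0 to 100.1 CPM without TMM factors, and 0 of the 3 tested entries passed in any comparison by edgeR or DESeq2 or at an unadjusted p under 0.05. Families known from vertebrates gave 3 entries for 3 of the 5 families sought, summing to 53.7 to 198.5, 13.3 to 36.4 and 23.2 to 35.4 CPM, without overlap between the 3rd instar and the rest, also when unscaled (45.9 to 195.3, 14.6 to 42.5 and 23.9 to 31.2). By stage mean, most of this sum was miR-143-y, at 116 ± 75.2, 20.3 ± 9.40 and 19.5 ± 7.31 CPM (SD, n = 3 each). By edgeR miR-143-y did not pass in the 5th instar or in adults against the 3rd instar (adjusted p = 0.166 and 0.0710). Of the 3 entries only miR-21-x passed by edgeR. It fell in the 5th instar and in adults against the 3rd instar (log2 fold changes -3.31 ± 0.75 and -2.97 ± 0.71, adjusted p = 0.0484 and 0.0262 by edgeR). It was rare, at 11.7 ± 5.44, 1.11 ± 0.985 and 1.38 ± 0.760 CPM, and 3 counts in a 5th instar or adult library come to 0.758 to 2.05 unscaled CPM. By DESeq2 miR-21-x and miR-143-y passed in both comparisons, beside 7.26% and 17.3% of all tested entries. At an unadjusted p under 0.05 there were 3, 0 and 2 of the 3, beside 17.3%, 10.1% and 35.8%. The 5 muscle entries (miR-1 and miR-133) summed to 8706 to 11444, 9529 to 10547 and 11898 to 16727 CPM, highest in adults without overlap on this scale but not on library totals alone (7439 to 10338, 9784 to 12298 and 10485 to 17285), and 0 of 4 tested passed by edgeR or DESeq2 (0, 2 and 3 at an unadjusted p under 0.05). Most of this sum was miR-1-y, at 9817 ± 1381, 9769 ± 517 and 13150 ± 2610 CPM. The share of entries that do not overlap between the adult and the 5th instar was not computed. No entry of these lists was at 0 in all libraries, and the part of neurons or muscle in the level of miR-14-y was not tested.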

How the data were processed

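Small RNA of 15 to 30 nt was isolated from a gel and sequenced on an Illumina machine (50 bp, single-end), per the labels' protocols. Aligner, counter and reference: not given in the sources used here. Per the file headers, the deposited table holds raw counts and TPM of 365 entries, with sequences. The authors' TPM values are counts scaled by a library total, not by length, with 0 counts written as 0.01. They served only to derive library totals, of which the listed counts make up 97.2% to 98.6%. No source used here explains the suffixes y and z. Entries of 1 sequence do not always hold the same counts (4 of 9 shared sequences differ), so how reads of nested sequences were assigned is not known. Reads carry no molecular identifiers, so intervals cover counting error only.

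Counts of all 9 libraries were fitted in a group-means model with edgeR 4.0.16 in R 4.3.3 (TMM factors of 0.854 to 1.166, expression filter by stage, robust quasi-likelihood F test), which left 179 entries, both miR-14 forms among them. p-values were Benjamini-Hochberg adjusted over all 179, with a threshold of 0.05. A standard error is the size of the log2 fold change over the root of F. The ratio was tested by exact permutation. No replicate pair agreed within sampling noise. The fit was tested on simulated counts. Alternatives included DESeq2 1.42.0, other scalings and filters and leaving out each library. Totals implied by TPM and the omission of the most abundant entry were chosen after seeing the data.

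Named entries were both members, any entry sharing their seed or sequence, the 5 most alike in pattern to each (log2 CPM with a prior count of 2) and the 3 of smallest p over the stages in each list. miR-317, miR-100-x, let-7 and miR-125 among the nested pairs were chosen after their values were seen, as were miR-276, miR-8-x and miR-21-x. The same holds for miR-305-x, miR-305-y, miR-9-x and miR-9-y. The members and lists were chosen with earlier results of these data known, and lists are described by counts and medians, without a test.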

Additional observations from a re-analysis of the deposited data

How the results depend on the processing

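The direction of miR-14-y against the 3rd instar held in all 23 alternatives for each comparison, but its calls did not. In the 5th instar 7 of 23 alternatives kept the call. It was lost with library totals alone (log2 fold change -0.37), totals implied by TPM (-0.37), a filter of 10 CPM in 3 libraries (-0.66, adjusted p = 0.0582), identical sequences summed (-0.63), known entries only (-0.66), a fit of these stages alone (-0.62) and without the most abundant entry (-0.61). With the replicate number as a block the log2 fold change was -0.64 (adjusted p = 0.0741). Leaving out 1 library gave -0.70 to -0.48. In adults against the 3rd instar 17 of 23 kept it, and it was lost with library totals alone (-0.44), totals implied by TPM (-0.44) and without some single libraries (-0.72 to -0.47 over all 9). Over the 3 stages 14 of 22 kept it, the adjusted p being 0.257 with library totals alone, 0.245 with TPM totals, 0.0583 without the most abundant entry and 0.0319 to 0.186 without 1 library. Apart from these values, the cause of each loss was not tested.

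Between the adult and the 5th instar miR-14-y never passed (adjusted p 0.816 to 0.992) and its sign was not stable, at -0.021 with DESeq2 and with RLE factors, -0.073 with library totals, -0.076 with TPM totals, -0.0028 without the 5 most abundant entries, -0.037 with the stricter filter, -0.052 with known entries, -0.063 with only these stages and -0.11 to 0.091 without 1 library. miR-14-z was lower in the later stage in all alternatives and passed in adults against the 3rd instar in 2 of 20, DESeq2 (-1.56) and known entries only (-1.60), with -1.75 to -1.13 without 1 library. In those 2 alternatives 31 of 179 and 17 of 151 entries passed. miR-14-z had no value under the stricter filter. For the ratio over the stages, p was 0.0571 to 0.111 under other ways of forming it or with the replicate block, and 0.0179 to 0.196 without 1 library. Subtracting the longer form from the shorter, in case its reads were counted in both, or summing the forms, changed no call. The number of entries passing ran from 1 to 13 in the 5th against the 3rd instar (4 as reported, 13 with DESeq2), from 0 to 4 in the adult against the 5th (3 as reported, 0 when adult 3, 5th instar 1 or 5th instar 2 was left out) and from 4 to 32 in the adult against the 3rd (14 as reported, 32 with TPM totals, 28 of them higher). The replicate block changed no other call of the members. Replicate numbers pair nothing in the labels, 5 of 9 same-numbered pairs of libraries correlated above 0.1 in their deviations from stage means, and 5 of 9 libraries correlated best with their own number. Depth limits the precision of miR-14-z, which has 3 to 48 counts per library.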
